A study of Mus musculus with 23 samples.

Results

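The 190 genes described here are the more abundantly expressed mouse genes whose symbol is Zfp followed by digits alone. They were chosen by the mean normalised count in the authors' deposited table of Inv1DelCTCF against Inv1, which had to be at least 500. Zfp142 was left out by the same rule. The table holds 34682 genes and 351 such symbols, of which 160 had a mean under 500, 20 of them at 0. All 190 chosen genes have an adjusted p in that table, as do 11218 genes in all. Because the contrast that chose the genes is the only one that covers them, every change below is a description of these 5 libraries and no test was made over the 190 genes.

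The study sequenced polyA RNA from distal forelimbs of mouse embryos at E11.5, after inversions engineered with CRISPR/Cas9 had moved a limb enhancer cluster out of the Epha4 domain into a gene-dense region. Inv1 (3 libraries) carries inversion 1, and Inv1DelCTCF (2 libraries) carries inversion 1 with a deletion named for CTCF, the DNA-binding protein found at many domain boundaries. The labels name that deletion without describing it, and inversion 1 is therefore shared by both groups. They give G4 ESC, a mouse embryonic stem cell line, as the cell type of every library, the dissected tissue included. The design text calls the libraries biological replicates and does not say how many embryos or engineered clones stand behind each. The other libraries, from wild type limbs, the remaining 3 inversions and Inv1 stem cells, enter no comparison here. None of the 190 genes is among the 79 genes of the tables against wild type, so whether a Zfp gene differed from wild type was not analysed here.

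Most Zfp genes encode C2H2 zinc finger proteins, in which repeated short modules, each folded around a zinc ion by a pair of cysteines and a pair of histidines, read DNA side by side. Many also carry a KRAB box, which binds Trim28 and through it recruits Setdb1 and heterochromatin proteins, and these proteins are best known for silencing transposable elements and protecting imprinted marks. Zfp genes without the box have varied roles, among them transcription in the limb, fat and nervous system, RNA binding and ribosome quality control.

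To show what the genes share and how their sequences differ, the DNA of 1 finger is given for each of 8 genes, 5′ to 3′ on the coding strand, in GRCm38 with GENCODE models. Capitals mark the codons of the 2 cysteines and 2 histidines. The first 3 belong to the genes with the highest log2 change, and each finger lies near the middle of its gene's array.
Zfp937: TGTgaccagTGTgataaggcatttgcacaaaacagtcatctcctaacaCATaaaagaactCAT
Zfp442: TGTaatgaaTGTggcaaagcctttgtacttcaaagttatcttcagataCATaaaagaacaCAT
Zfp449: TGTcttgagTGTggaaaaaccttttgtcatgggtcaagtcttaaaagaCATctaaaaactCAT
These lie at chr2:150238868-150238930 on the plus strand, chr2:150408694-150408756 on the minus strand and chrX:56363293-56363355 on the plus strand, each within the last exon of the gene (exon 4 of 4, 4 of 4 and 5 of 5). Their GC content was 38.1%, 31.7% and 34.9%.

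The next 3 belong to the genes with the lowest log2 change among those with at least 3 fingers.
Zfp628: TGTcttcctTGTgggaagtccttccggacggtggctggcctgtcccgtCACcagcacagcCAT
Zfp219: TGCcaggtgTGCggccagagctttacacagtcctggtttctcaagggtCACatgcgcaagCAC
Zfp787: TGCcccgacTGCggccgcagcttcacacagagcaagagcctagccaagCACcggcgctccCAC
These lie at chr7:4919822-4919884 on the plus strand in exon 3 of 3, chr14:52008772-52008834 on the minus strand in exon 3 of 5 and chr7:6132735-6132797 on the minus strand in exon 3 of 3. Their GC content was 61.9%, 57.1% and 68.3%. At the third base of each codon, which often leaves the amino acid unchanged, G or C made up 66.7%, 81.0% and 90.5%, against 23.8%, 14.3% and 14.3% in the 3 fingers printed before them.

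The last pair is from Zfp57, a KRAB protein that maintains imprints, and Zfp423, a cofactor of BMP signalling and of fat cell commitment.
Zfp57: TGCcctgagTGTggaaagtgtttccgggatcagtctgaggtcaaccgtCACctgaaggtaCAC
Zfp423: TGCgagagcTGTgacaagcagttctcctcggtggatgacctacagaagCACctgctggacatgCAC
They lie at chr17:37009763-37009825 on the plus strand in exon 5 of 5, with 54.0% GC, and at chr8:87781546-87781611 on the minus strand in exon 3 of 7, with 56.1% GC. The finger of Zfp423 is 66 bases long and that of the other 7 genes 63. At the third base of each codon G or C made up 61.9% in Zfp57, which had a log2 change of 0.30. In Zfp423, with a log2 change of -0.42, the value was 86.4%.

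By the authors' deposited table, 21 of the 190 genes were higher in Inv1DelCTCF at an adjusted p under 0.05, 23 were lower and 146 were not called. Of all 11218 genes with an adjusted p, 3.81% were called higher and 7.89% lower. Among the 8398 of them with a mean of at least 500, 4.16% were called higher and 9.95% lower. The rule used this contrast, so the shares are printed side by side and nothing is read from them. The median log2 change of the 190 genes was 0.049, with quartiles of -0.11 and 0.15, against -0.014 over all genes and -0.025 over the 8208 other genes with a mean of at least 500. The changes were small: the range ran from -0.56 to 0.49, the smallest called rise was 0.23 and the smallest called fall -0.18. The change was positive in 60.5% of the 190 genes.

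**Figure D1:**
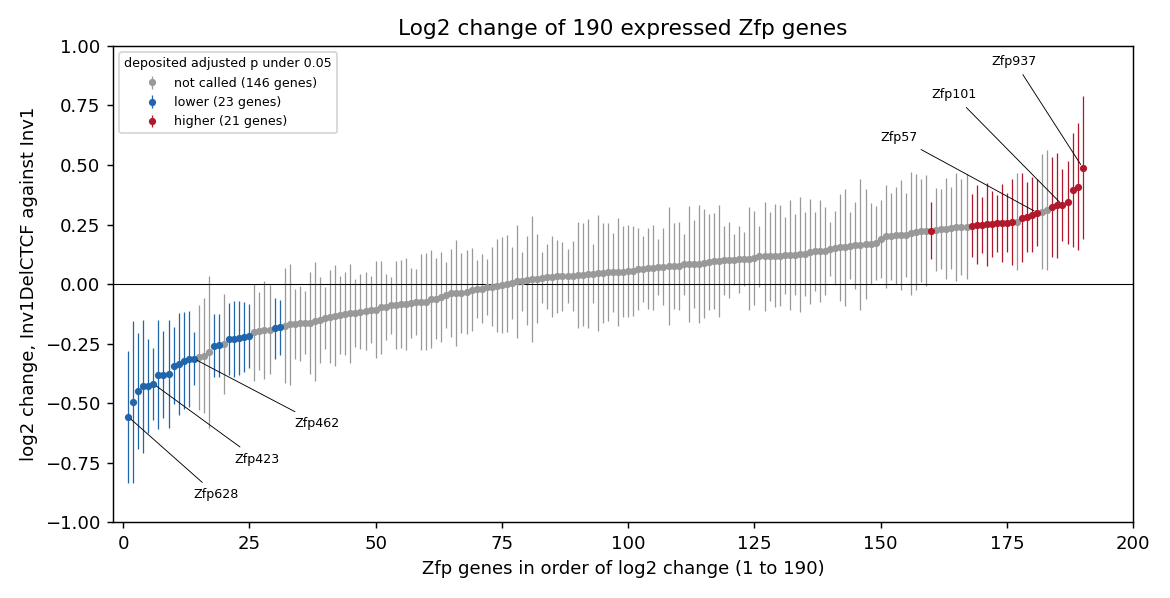
Log2 change in Inv1DelCTCF against Inv1 of the 190 Zfp genes in rank order, with 95% intervals from the authors' SE; colour marks the call at a deposited adjusted p under 0.05. The 23 genes called lower lie at the left end and the 21 called higher at the right end, with genes not called between and among them.

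The tables give no value per library, so each gene's level in the groups was rebuilt from its mean, its log2 change and the number of libraries, and whether the libraries overlap cannot be shown. Zfp937 had the highest change, with a rebuilt level of 447 normalised counts in Inv1 and 628 in Inv1DelCTCF. The authors' deposited table puts its log2 change at 0.49 (SE 0.153), a fold of 1.40 with a 95% interval of 1.14 to 1.73 (DESeq2 adjusted p = 0.0204). Zfp442, from the same cluster on chromosome 2, went from 816 to 1083, a log2 change of 0.41 (SE 0.136). These closely related genes are hard to count apart: 31.5% of the 50-base windows in the Zfp937 transcript also occur in another gene, most often Zfp442, and 32.3% of those of Zfp442, most often Zfp937. Zfp449, a zinc finger gene on the X chromosome without a KRAB box, shared none, and rose from 505 to 665 (log2 change 0.40, SE 0.122).

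The KRAB genes Zfp160, Zfp101, Zfp942 and Zfp932 rose by 0.34, 0.33, 0.33 and 0.32 on the log2 scale in the authors' deposited table. The transcripts of Zfp932 and Zfp942 share 45.2% and 8.99% of their windows with other genes, so their values are uncertain, whereas Zfp160 shares none. Zfp944 and Zfp825, the next in order, had changes of 0.31 (SE 0.129) and 0.30 (SE 0.123) and were not called, and their values are uncertain too, with 10.4% and 28.7% of windows shared. Zfp57 completes the 10 highest, with rebuilt levels of 3259 in Inv1 and 4013 in Inv1DelCTCF (fold 1.23, 95% interval 1.12 to 1.36, DESeq2 adjusted p = 0.00134 in the authors' deposited table).

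At the other end, Zfp628 had the lowest change, from 851 in Inv1 to 579 in Inv1DelCTCF. That is a log2 change of -0.56 (SE 0.141) and a fold of 0.680, with a 95% interval of 0.561 to 0.823 (DESeq2 adjusted p = 0.00270 in the authors' deposited table). Zfp428 fell from 697 to 494 (log2 change -0.50, SE 0.173). Zfp219, a partner of Sox9 in cartilage formation, fell from 3137 to 2297 (log2 change -0.45, SE 0.125), while Sox9 itself had a change of -0.05 (SE 0.098) and was not called. Zfp787 and Zfp703 each fell by 0.43 on the log2 scale, and Zfp703 acts as a corepressor. Zfp423 fell from 4178 to 3125, a fold of 0.748 with a 95% interval of 0.674 to 0.830 (DESeq2 adjusted p = 1.12e-05 in the authors' deposited table). Zfp865, Zfp358 and Zfp668 each fell by 0.38, and Zfp652, a transcriptional repressor, fell by 0.34. The transcript of Zfp865 shares 19.1% of its windows with another gene.

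The 5 genes with the highest mean count were Zfp207, Zfp664, Zfp106, Zfp445 and Zfp266. Per kilobase of transcript, which allows levels of different genes to be compared, Zfp207 was highest of the 190 at 3997 normalised counts per kb. Zfp664 followed with 2659, and Zfp445, Zfp266 and Zfp106 had 1396, 1320 and 1184. The median over the genes with a coding transcript was 316 counts per kb. Zfp207, which binds the mitotic checkpoint protein Bub3, had rebuilt levels of 12731 and 13668 (log2 change 0.10, SE 0.055, not called). Zfp664 had 10925 and 10818 (log2 change -0.01, SE 0.060), and Zfp266 had 8499 and 7994 (log2 change -0.09, SE 0.061), and neither was called. Zfp106, an RNA-binding protein needed by motor neurons, fell by 0.18. Zfp445, which maintains imprints alongside Zfp57, rose from 8036 to 9548 (log2 change 0.25, SE 0.060, DESeq2 adjusted p = 0.00164 in the authors' deposited table).

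Just inside the minimum mean of 500 stood Zfp454 (mean 510.8, log2 change 0.05), Zfp948 (513.6, 0.23) and Zfp937 (519.2, 0.49). Just outside stood Zfp943 (488.1, 0.46), Zfp28 (482.8, 0.19) and Zfp800 (481.0, 0.11). Of the 160 Zfp genes under the minimum, 81 had an adjusted p, with a median log2 change of 0.085. DESeq2 called 1 of them higher and 0 lower, and at an unadjusted p under 0.05 there were 8 higher (9.88%) and 4 lower (4.94%). Of all 11218 genes 1123 were higher and 1805 (16.1%) lower at that unadjusted p.

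A KRAB box was looked for in the translated transcripts as a match to at least 8 of the 18 fixed positions of a consensus. It was found in 88 of the genes and not in 101, and Zfp783 has no coding transcript in the annotation. No gene fell between 5 and 8 matching positions. Of the 88 KRAB genes, 14 were called higher and 1, Zfp334, lower, and 66 had a positive change, with a median of 0.116. Of the 101 genes without the box, 7 were called higher and 22 lower, and 48 had a positive change, with a median of -0.019. KRAB genes made up 14 of the 21 called higher and 1 of the 23 called lower. Of all genes with an adjusted p, 3.81% were called higher and 7.89% lower, and the difference between the groups was not tested. The same box occurs in 196 genes outside the 190, of which 92 had an adjusted p, with a median log2 change of 0.135, 5 called higher and 1 called lower.

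KRAB genes were also the more AT-rich and the less abundant group. Median GC content of the longest transcript was 43.2% with the box and 48.8% without it. At the third codon position of the fingers the medians were 43.1% and 66.7%. The median level was 253 counts per kb with the box (quartiles 183 and 381) and 423 without it (quartiles 211 and 637). All fingers lay in a single exon in 88 of 88 KRAB genes and in 56 of the 97 others that have a finger.

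The number of fingers ranged up to 33, in Zfp462, with a median of 10. No C2H2 finger of the searched pattern was found in Zfp703, Zfp503, Zfp839 or Zfp330. The median log2 change was 0.004 for 33 genes with 0 to 4 fingers, 0.024 for 50 genes with 5 to 9, 0.080 for 66 genes with 10 to 14 and 0.092 for 40 genes with 15 or more. Within the KRAB genes Spearman's rho of log2 change with finger number was 0.25 (n = 88), and within the others it was -0.09 (n = 101), both given as descriptions over genes of the same libraries.

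Many Zfp genes lie in clusters, and 99 of 189 had a gene with at least 3 fingers as a direct neighbour in the RefSeq gene order. These included 67 KRAB genes and 32 without the box. The median log2 change was 0.069 with such a neighbour and 0.029 without. Among KRAB genes the order was the other way, 0.10 with a neighbour (67 genes) and 0.19 without (21 genes). By chromosome, the 22 genes on chromosome 17, of which 18 carry the box, had a median change of 0.18 and a median GC content of 40.3%, with 5 called higher and 1 lower. The 41 genes on chromosome 7, of which 17 carry the box, had a median change of -0.02 and a median GC content of 48.3%, with 2 called higher and 9 lower. Over all genes with an adjusted p, 3.81% were called higher and 7.89% lower.

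The log2 change of a Zfp gene went with its base composition. Over the 190 genes Spearman's rho of log2 change with GC content was -0.70, within KRAB genes -0.55 (n = 88), within the others -0.67 (n = 101) and over the other genes with a mean of at least 500 it was -0.56 (n = 8075). These are descriptions over genes that share the same 5 libraries. The 21 genes called higher had GC contents of 37.3% to 48.0%, with a median of 41.2%. The 23 called lower had 46.3% to 64.4%, with a median of 53.8%, so the ranges overlap only between 46.3% and 48.0%. The 146 genes not called had a median of 44.9%. In the third codon position of the fingers, where the printed sequences differ most, the median was 41.3% for genes called higher and 72.6% for those called lower.

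**Figure D2:**
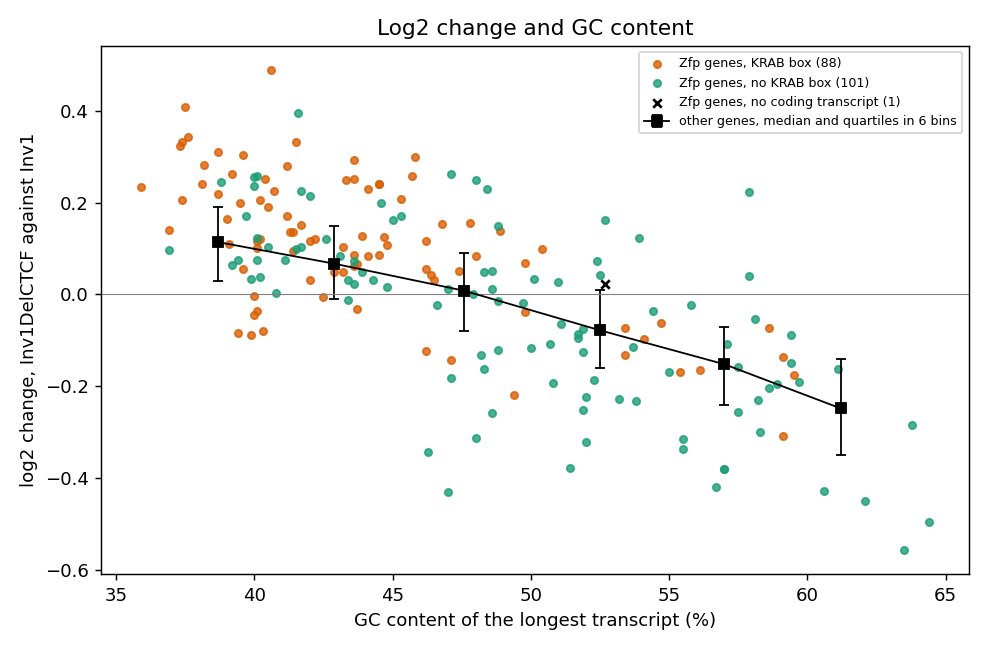
Log2 change in Inv1DelCTCF against Inv1 (y) by GC content of the longest transcript in percent (x) for the 190 Zfp genes, coloured by KRAB box; black squares with bars are medians and quartiles of the other genes with a mean of at least 500 in 6 bins of GC content. Zfp genes and other genes both go from positive changes at low GC content to negative ones at high GC content, and the KRAB genes lie mostly at the AT-rich end.

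Zfp genes were next set beside other genes in the same bins of GC content. Under 40% GC the median log2 change was 0.212 in 26 Zfp genes and 0.114 in the other genes with a mean of at least 500. From 40% to 45% it was 0.107 (65 Zfp genes) and 0.067, and from 45% to 50% it was 0.037 (38 genes) and 0.008. From 50% to 55% it was -0.095 (29 genes) and -0.078, and from 55% to 60% it was -0.172 (26 genes) and -0.152. At 60% or more it was -0.439 and -0.248, where only 6 Zfp genes fall. In all 6 bins the Zfp median lay further from 0 than the median of other genes. GC content was not matched within the bins. From the lowest bin to the highest, its median in Zfp genes was 38.9%, 42.0%, 47.9%, 52.0%, 57.9% and 62.8%. In the other genes it was 38.7%, 42.9%, 47.6%, 52.5%, 57.0% and 61.2%. Of the 21 genes called higher by DESeq2, 17 had a GC content under 45%, where 0 Zfp genes were called lower and 0 had a negative change at an unadjusted p under 0.05. Lower calls were also few among the other genes there: under 40% GC, 63 of 441 were called higher and 1 lower, and from 40% to 45%, 134 of 1679 were called higher and 22 lower.

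The genes at the extremes of GC content lay on opposite sides of 0. Zfp945, Zfp654 and Zfp946 were the most AT-rich (35.9%, 36.9% and 36.9%), with changes of 0.23, 0.10 and 0.14, none of them called. Zfp428, Zfp579 and Zfp628 were the most GC-rich (64.4%, 63.8% and 63.5%), with changes of -0.50, -0.28 and -0.56, of which that of Zfp579 was not called.

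Promoters were compared too, from 250 bases before to 50 after the start in RefSeq on GRCm38, where 152 of the 190 genes have an entry. Median promoter GC content was 53.3% in genes called higher and 65.0% in genes called lower, with a median of 10 and 21 CG dinucleotides. Over the other genes with a mean of at least 500 the medians were 62.0% and 22. Spearman's rho of log2 change with promoter GC content was -0.33 (n = 152). The value for the transcript, -0.70, covers all 190 genes and was not computed over the 152 alone.

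A trend in GC content and length, fitted over the 10866 genes with an adjusted p and an annotated transcript, was then subtracted from each log2 change. After it, at an adjusted p under 0.05 over all genes of the trend, 4 of the 190 genes were called higher and 5 lower, against 1.94% of the 10866 genes called higher and 1.64% called lower. Of the 44 calls before it, 8 were kept, 36 were lost and 0 changed direction, and 1 gene, Zfp692, was gained. A lost call was not always a much smaller change: Zfp90 went from 0.26 to 0.24, Zfp105 from 0.26 to 0.24, Zfp637 from 0.25 to 0.23, Zfp106 from -0.18 to -0.16 and Zfp668 from -0.38 to -0.31. The median of the 190 genes became 0.018, and their SD went from 0.197 to 0.137. The median was 0.055 for KRAB genes and -0.016 for the others, so the difference between them went from 0.135 to 0.071. Values after the trend still went with GC content over the 190 genes, with a Spearman's rho of -0.29. Over the other genes with a mean of at least 500 it was -0.02 (n = 8075). With GC content of the coding sequence rho was -0.41 (n = 189) and -0.10 (n = 8020).

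**Figure D3:**
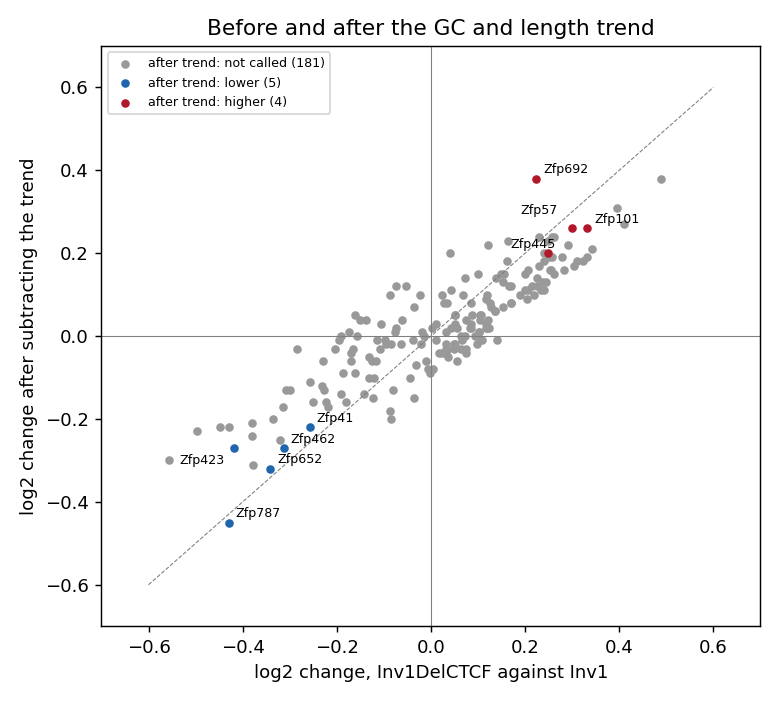
Log2 change in Inv1DelCTCF against Inv1 of the 190 Zfp genes before (x) and after (y) subtracting the trend in GC content and length; colour marks the call after it and the dashed line marks equal values. The 9 genes called after it are named, and 149 of the 190 genes moved toward 0.

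The genes called higher after the trend were Zfp692 (0.38), Zfp57 (0.26), Zfp101 (0.26) and Zfp445 (0.20). Those called lower were Zfp787 (-0.45), Zfp652 (-0.32), Zfp423 (-0.27), Zfp462 (-0.27) and Zfp41 (-0.22). Zfp692 was not called before the trend, with a change of 0.22 (SE 0.110) at a GC content of 57.9%. The transcript of Zfp787 has 47.0% GC and its coding sequence 65.6%. When GC content of the coding sequence replaced that of the transcript, Zfp787, Zfp101 and Zfp445 were no longer called and Zfp367, Zfp637 and Zfp106 were. With transcript GC content alone, without length, Zfp787 was likewise no longer called and Zfp106 was. Under each of the 4 forms of the trend, Zfp57 and Zfp692 were called higher and Zfp41, Zfp423, Zfp462 and Zfp652 lower.

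Of 10 Zfp genes listed for roles in development or imprinting, 9 belong to the 190, and Zfp809, with a mean of 289, does not. Zfp57 and Zfp445 rose and Zfp423, Zfp462 and Zfp703 fell. Zfp462, a large multi-finger protein of neural development, fell from 6228 to 5013 (log2 change -0.31, SE 0.056), which was the smallest adjusted p of the 190 (DESeq2, 5.05e-06 in the authors' deposited table). Zfp521, the close relative of Zfp423, had rebuilt levels of 5751 and 5889 and a change of 0.03 (SE 0.075), and was not called. Zfp503, the close relative of Zfp703, had a change of -0.20 (SE 0.083), Zfp568, a KRAB repressor of Igf2, -0.14 (SE 0.067), and Zfp281, known from pluripotent cells, 0.08 (SE 0.065). None of these 3 was called.

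Of 10 Zfp genes listed for roles outside sequence-specific repression, 8 belong to the 190, and Zfp36 (mean 191) and Zfp326 (mean 5.69) do not. Zfp638, linked to RNA processing and to silencing of retroviral DNA, rose from 3587 to 4291 (log2 change 0.26, SE 0.063). Zfp106 and Zfp609, a partner of the cohesin loader Nipbl, fell by 0.18 and 0.19. Zfp207, described above, Zfp143, a promoter-binding activator (0.02, SE 0.095), Zfp598, the ubiquitin ligase that marks collided ribosomes (-0.15, SE 0.092), Zfp622, a ribosome assembly factor (0.02, SE 0.096), and Zfp91, a ubiquitin ligase (0.01, SE 0.064), were not called.

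A KRAB corepressor list of 24 genes, Trim28 and other silencing factors, was examined. Of these genes 23 had an adjusted p and Chd4 is listed at 0. By the adjusted p of the authors' deposited table, 1 of them was called higher and 5 lower, with a median log2 change of -0.03. Over all genes with an adjusted p the shares were 3.81% and 7.89%. Cbx5, the heterochromatin protein HP1 alpha, fell by 0.29 (SE 0.059, DESeq2 adjusted p = 9.12e-05), and Uhrf1, which brings Dnmt1 to replicating DNA, fell by 0.36 (SE 0.089, DESeq2 adjusted p = 0.00184). The histone methyltransferase Ehmt2 and the DNA methyltransferases Dnmt3b and Dnmt1 fell by 0.30, 0.33 and 0.19. Mphosph8, of the HUSH silencing complex, rose by 0.23 (SE 0.071). Trim28, with a mean of 34182 counts, had a change of -0.13 (SE 0.067, DESeq2 adjusted p = 0.211), and Setdb1 had 0.05 (SE 0.059, DESeq2 adjusted p = 0.601). The members called lower have 42.6% to 60.8% GC. After the trend Cbx5 stayed called at -0.33 and Chd3, a chromatin remodeller not called before it, was called higher at 0.33. Uhrf1 (-0.28), Ehmt2 (-0.09), Dnmt3b (-0.25), Dnmt1 (-0.08) and Mphosph8 (0.14) were no longer called after the trend.

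**Figure D4:**
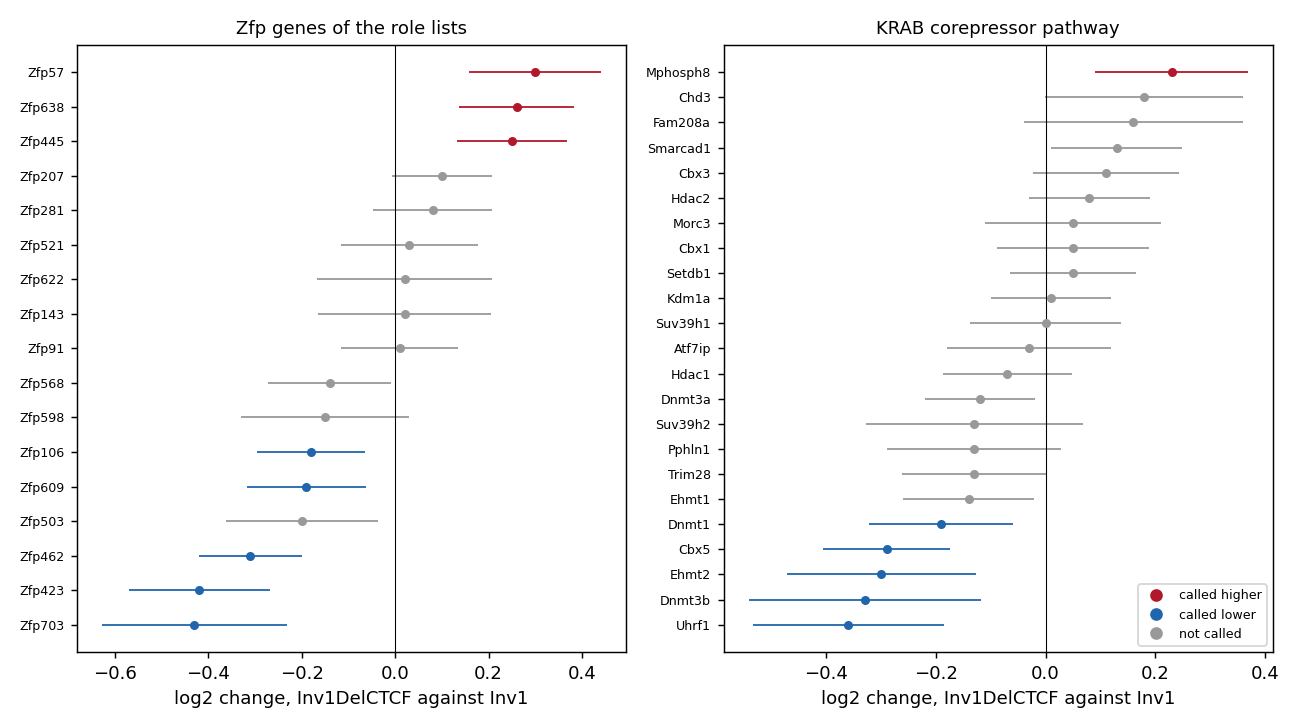
Log2 change in Inv1DelCTCF against Inv1 with 95% intervals from the authors' SE for the 17 Zfp genes of the 2 role lists (left) and for 23 genes of the KRAB corepressor list (right), coloured by the call at a deposited adjusted p under 0.05. On the left Zfp57, Zfp638 and Zfp445 are called higher and Zfp703, Zfp423 and Zfp462 lie lowest, and Trim28 and Setdb1 are not called on the right.

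Other zinc finger families served for comparison. The 123 other genes with at least 3 fingers and a mean of at least 500 had a median log2 change of -0.002, with 7 called higher and 19 lower. Of 29 tested Zbtb genes 1 was called higher and 5 lower (median -0.096), and of 11 Klf genes 1 was called lower (median -0.137). Of 10 tested Zkscan genes 1 was called higher and 1 lower (median 0.047), and of 7 tested Zscan genes 0 were called (median 0.075). These 2 medians were positive, as was that of the Zfp genes (0.049). Of 5 tested Sp genes 0 were called higher and 2 lower (median -0.036), and of 3 Zfhx genes 0 were called (median -0.185). Of all genes with an adjusted p, 3.81% were called higher and 7.89% lower. The 3 Gli genes, effectors of hedgehog signalling, had a median of -0.147, and 0 were called by DESeq2 while 2 were lower at an unadjusted p under 0.05, where 16.1% of all genes were.

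Markers of other cell types moved in the same libraries. All 8 ectoderm markers had a negative change, 4 of them called lower, with a median log2 change of -0.35. Of all genes with an adjusted p, 7.89% were called lower. The ectoderm markers had a median GC content of 56.7%. After the GC and length trend 0 of the 8 were called, and their median log2 change was -0.26, against -0.35 before it. Of 4 tested red cell genes 2, Hba-x and Hbb-bh1, were called lower, before and after the trend. Hbb-y and Alas2 had changes of 0.16 and 0.03 and were not called. Of 5 tested endothelial markers 1 was called lower, and the 5 limb mesenchyme markers, Prrx1 and Hoxd13 among them, were expressed, with 0 of them called by DESeq2 and 3 lower at an unadjusted p under 0.05, as were 16.1% of all genes. Tested markers of cartilage (3), muscle (4), macrophages (3) and nerve (2) had 0 calls by DESeq2, and at an unadjusted p under 0.05 there was 1 higher in each of these lists except muscle, beside 1123 of all 11218 genes. All 3 tested macrophage markers had a positive change, with a median log2 change of 0.27. After the trend 1 of them, Csf1r, was called higher (0.53), as were 1.94% of the genes of the trend. The cartilage, muscle and nerve lists had 0 calls after it. The part of cell composition in the Zfp values was not tested. In these bulk samples fewer cells of a type and less RNA per cell cannot be told apart.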

How the data were processed

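RNA-seq libraries of mouse E11.5 distal forelimbs were compared through tables of the authors' own fits. STAR, DESeq2 and the build mm9 are named in the submitters' processing notes, and alignment and counting settings are not given in the sources used here. Per the file headers, each table gives a mean normalised count, a signal pooled over libraries, a log2 fold change and SE, also log2, the deposited Wald score, and deposited p-values before and after adjustment. The means add up to 30200336 normalised counts. Depth per library is unknown, so no counting interval could be given. Whether libraries came from separate litters is not stated, and a p-value covers no spread beyond that of these libraries.

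The headers do not name the numerator. Inv1 levels of 49 genes were rebuilt from the tables against wild type and set against those of the Inv1DelCTCF table, with a median absolute residual of 0.0124 (log2) for the sign used and 0.107 or more for others. Signs were reversed, making a positive value one that is higher in Inv1DelCTCF. Calls are at a deposited adjusted p under 0.05.

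The longest GENCODE transcript on GRCm38 gave GC content and length, for 96.9% of genes with a deposited adjusted p. Exon and sequence coordinates are on GRCm38, not the authors' build. Fingers were found by the pattern of cysteines and histidines, and the KRAB box by a consensus match whose minimum of 8 positions was set after the scores were seen. The trend was weighted least squares, cubic in GC content and log2 length with their product, and was tested on simulated data. The SE of a value after it is the deposited SE, and its p-values were adjusted by Benjamini-Hochberg over all genes with a trend. Python 3.11.15, pandas 2.3.3, numpy 2.4.6 and SciPy 1.17.1 were used. Shared windows compare transcripts, not the authors' counting.

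The genes and lists were chosen with earlier results of these data known. Genes named are the 10 highest and 10 lowest changes, the 5 highest means, 3 on either side of the minimum mean, 3 at either end of GC content, both role lists and up to 6 corepressor genes, with others where a count of 5 or fewer or a contrast called for a name.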

Additional observations from a re-analysis of the deposited data

How the results depend on the processing

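At an adjusted p under 0.01, 11 of the 190 Zfp genes were called higher and 9 lower, and after subtracting the GC and length trend 4 and 5 were. These counts are fewer by construction for the stricter threshold, and for the trend the cause was not tested. The median log2 change was 0.031 with a minimum mean of 1000 and 0.020 as a mean weighted by 1/SE squared. The difference between KRAB genes and the others was 0.071 after the trend. The counts, medians and correlations under the remaining alternatives kept their direction, and the counts stayed within 1.5 times, including with other minimum means, with Zfp142 and, chosen after seeing the data, without 22 genes that share at least 5% of their windows (16 higher, 22 lower) and with a KRAB match of at least 12 positions (0.140). Of 45 genes called before or after the trend, 8 kept their call, 36 lost it and 1 gained it. No paired analysis was possible because the tables hold no value per library, and for the same reason no library could be left out. Depth limits cannot be given from these tables.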
